A study of Mus musculus with 25 samples.

Results

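The 10 Bcl2 family genes described here were chosen by name from the 23116 genes of an RNA-seq table of murine HSLAM cells, a sorted bone marrow fraction enriched in hematopoietic stem cells (LSK+ CD150+ CD48-), and all 10 are in that table. They fall into 4 survival members (Bcl2, Bcl2l1, Bcl2l2 and Mcl1), 4 BH3-only death members (Bcl2l11, Bid, Bad and Bmf) and 2 effectors (Bax and Bak1). The 3 Znf143 f/f libraries (labelled WT; here WT1, WT2 and WT3) came from floxed mice negative for the transgene Rosa26ERT2-Cre (Znf143 f/f, Rosa26ERT2-Cre-), and the 3 Znf143 -/- libraries (KO1, KO2 and KO3) from floxed mice that carry it (Rosa26ERT2-Cre+). All were male C57BL/6 littermates of 8 to 12 weeks, and both genotypes received the middle tamoxifen dosage of the study for 10 days, so that the Cre recombinase itself and the deletion cannot be told apart. The Cre is driven from the ubiquitous Rosa26 locus, so the deletion of the floxed exon 1 was not restricted to blood cells. The labels call the deleted genotype a CTCF knockout, whereas the methods of the study describe it as Znf143 -/-. The question was whether loss of ZNF143, a zinc finger factor that binds promoters, was accompanied by a different balance of survival and death transcripts in stem cells. The ChIP-seq and HiC samples among the 25 of the series were not analysed here.

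Bcl2 family proteins decide whether the mitochondrial outer membrane is opened during apoptosis. The survival proteins BCL2, BCL-XL (from Bcl2l1), BCL-W (from Bcl2l2) and MCL1 hold the effectors BAX and BAK in check, and the BH3-only proteins either occupy the survival proteins or activate the effectors directly. In mice, hematopoietic stem cells are known to depend on Mcl1. Much of this control acts on the proteins through binding, phosphorylation, cleavage or degradation, which RNA-seq does not measure.

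Deletion was checked first with Zfp143, the mouse symbol of Znf143. Its level was 2.96, 4.26 and 3.52 FPKM in WT1, WT2 and WT3 and 0.149, 0.287 and 0.260 FPKM in KO1, KO2 and KO3, a log2 fold change of -3.48 (limma, adjusted p = 0.00099). The assignment to WT or KO thus held in each of the 6 libraries for the Znf143 deletion that the methods describe. The CTCF knockout named in the labels was not checked. FPKM are fragments per kilobase of gene, scaled for library size. The deposited FPKM of KO3 carry the divisor of KO2, although KO3 holds 57895793 fragments on genes and KO2 48374495, so the levels below were rescaled from the recovered fragments by median-of-ratios size factors. Depth on genes ran from 38643255 to 57895793 fragments. The libraries also differed in likeness within a genotype. The spread of WT1 against WT3 was 1.74 times, and that of KO2 against KO3 1.64 times, what counting noise alone gives. The other pairs within a genotype had a spread of 5.92 to 10.2 times. Pairs of a Znf143 f/f and a Znf143 -/- library, which also hold the genotype difference, had 7.48 to 11.2 times. WT1 with WT3 and KO2 with KO3 were thus unusually close pairs, and WT2 and KO1 were the libraries outside them. Fold changes without WT2 or KO1 are given where they move a value or a call. Nothing in the labels ties WT1 to WT3 or KO2 to KO3, and p-values measure the spread between these samples only. The study describes biological replicates, but whether the libraries of a close pair are independent was not tested. If they are not, 3 libraries per genotype overstate the replication. With similar libraries averaged, the fit described below called 47 genes, against 1161 with all 6 libraries.

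None of the 10 members passed the test in Znf143 -/- HSLAM cells (limma on log2(FPKM + 0.1), adjusted p under 0.05), where 6.05% of all 19183 genes tested did (3.03% higher and 3.02% lower). Of the members, 9 had a mean FPKM of at least 0.1 and were tested, and Bmf was not. At an unadjusted p under 0.05 there was 1 member, Bid, against 24.2% of all genes, and limma-voom on the recovered fragments also called 0 members. On simulated fragments the main fit recovered only 40% of 2-fold changes, so a member not called is not shown to be unchanged. The log2 fold changes of the 4 survival members had a median of -0.0066 and those of the 5 death members tested a median of 0.18, with 2 of 4 and 5 of 5 above 0. All genes tested had a median of 0.0064, with the middle 50% between -0.25 and 0.26. The libraries of the genotypes did not overlap for 2 of the 9 members, Bid and Bcl2l1, and for 30.8% of all genes tested. In bulk RNA, fewer cells of a type and less RNA per cell cannot be told apart.

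**Figure D1:**
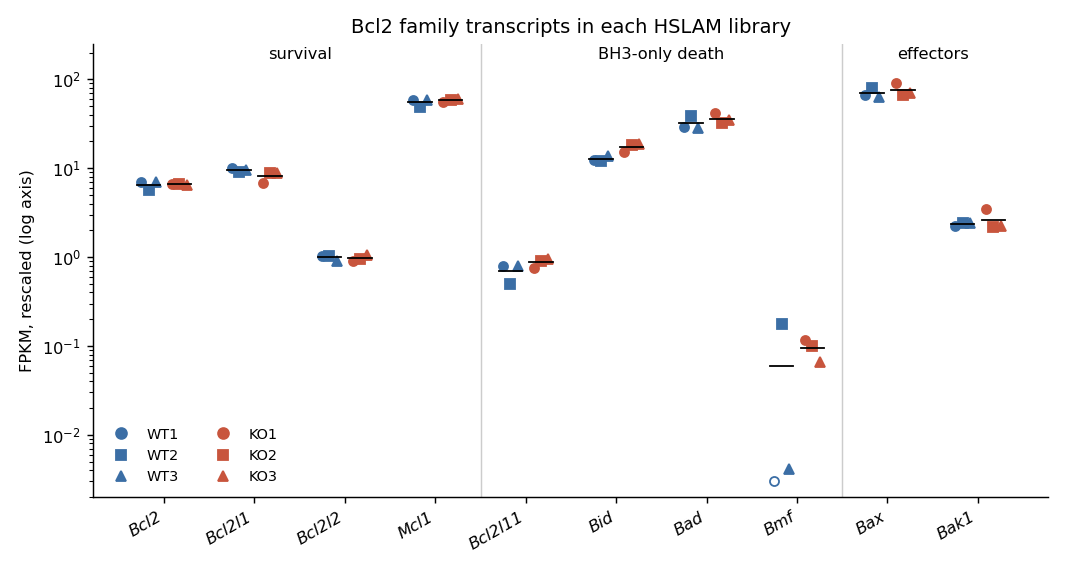
Level of each member in each library, in rescaled FPKM on a log axis, with blue symbols for Znf143 f/f, red for Znf143 -/- and a bar for the mean of 3 libraries; the open symbol for Bmf in WT1 is a value of 0 drawn at the foot of the axis. The order of levels is the same in both genotypes, and Bid and Bcl2l1 are the members whose blue and red symbols do not overlap.

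Per length, Bax, the effector that inserts into the outer membrane, was the highest member in both genotypes. Its mean was 69.8 FPKM in Znf143 f/f and 75.8 FPKM in Znf143 -/- cells. Mcl1, a short-lived survival protein, followed with means of 55.3 and 58.2 FPKM. Bad came next with means of 31.9 and 36.1 FPKM, then Bid with 12.7 and 17.3 FPKM and Bcl2l1 with 9.51 and 8.15 FPKM. Bcl2 itself lay at 6.54 and 6.57 FPKM, below Bcl2l1. The other 4 members were at or under 3.47 FPKM in every library, in the order Bak1, Bcl2l2, Bcl2l11 and Bmf. Each member was above the next in all 3 libraries of both genotypes. The ranges of neighbours overlapped only for Bcl2l2 and Bcl2l11 in Znf143 -/- cells.

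Positions below are on GRCm38, and reads over all exons of a gene, untranslated ones included, were counted. Among the survival members, Mcl1 (chr3:95658788-95663176, plus strand) had the highest level, and its level did not differ between the genotypes beyond the spread of the libraries. It was 58.3, 48.6 and 59.1 FPKM in WT1, WT2 and WT3 and 55.6, 59.0 and 60.1 FPKM in KO1, KO2 and KO3. WT2 was the low library, and the other 5 lay between 55.6 and 60.1 FPKM. On the log2 scale the fold change was 0.079 (95% interval -0.16 to 0.32), which covers folds of 0.894 to 1.25 (limma, adjusted p = 0.68). Without WT2 it was -0.011, and between WT1 and WT3 and KO2 and KO3 it was 0.022.

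Bcl2 (chr1:106538178-106714274, minus strand), the founding survival member, was at 6.99, 5.65 and 6.99 FPKM in the Znf143 f/f and 6.60, 6.66 and 6.44 FPKM in the Znf143 -/- libraries. The 3 Znf143 -/- values lay inside the range of the Znf143 f/f values. Bcl2 had a log2 fold change of 0.013 (95% interval -0.26 to 0.28; limma, adjusted p = 0.96), and without WT2, again the low library, it was -0.088. Bcl2l2 (chr14:54883377-54888234, plus strand) was at 1.03, 1.04 and 0.908 FPKM and at 0.904, 0.956 and 1.05 FPKM, with 183 to 285 fragments a library. Its groups overlapped, with a log2 fold change of -0.026 (95% interval -0.40 to 0.34; limma, adjusted p = 0.94), and its sign changed with the libraries and scaling used.

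Bcl2l1 (chr2:152780668-152831728, minus strand), whose main product BCL-XL is known for protecting erythroid cells and platelets, was the survival member with the widest gap. Its level was 9.94, 8.99 and 9.61 FPKM in Znf143 f/f and 6.85, 8.80 and 8.79 FPKM in Znf143 -/- libraries. All Znf143 -/- values were below all Znf143 f/f values, but KO2 and KO3 lay close to WT2, and KO1 was the lowest. Its log2 fold change was -0.23 (95% interval -0.52 to 0.066), a mean of 85.7% of the Znf143 f/f level, and did not pass the test (limma, adjusted p = 0.31). Without KO1 it was -0.11, so that KO1 set more of this difference than KO2 or KO3 did. Between WT1 and WT3 and KO2 and KO3 it was -0.15. The reads were counted per gene, so the long survival isoform and the short death-promoting isoform of Bcl2l1 are not told apart.

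Among the BH3-only members, Bid (chr6:120891930-120916853, minus strand) came nearest to the threshold. Bid is cut by caspase 8 and carries the signal of death receptors to the mitochondria. It was at 12.4, 12.01 and 13.7 FPKM in Znf143 f/f and at 15.1, 18.3 and 18.6 FPKM in Znf143 -/- libraries. Every Znf143 -/- library was above every Znf143 f/f library, and KO1 lay nearest to them. The means were 12.7 ± 0.895 and 17.3 ± 1.95 FPKM (SD, n = 3 each), a ratio of 1.36. The log2 fold change of 0.44 (95% interval 0.17 to 0.70, or folds of 1.13 to 1.63) had an unadjusted p of 0.0064 and an adjusted p of 0.071 by limma. Bid passed the test without KO1 (log2 fold change 0.53, limma adjusted p = 0.023, where 11.0% of all genes tested were called). Between WT1 and WT3 and KO2 and KO3 its log2 fold change was 0.49 (limma, adjusted p = 0.0049, where 42.6% were called). That split was chosen after seeing how close these libraries lie, so its small spread is built in and it adds no support. Leaving out any single library other than KO1 left the adjusted p of Bid at 0.095 to 0.28, and averaging similar libraries at 0.55 (limma). Over all alternatives its log2 fold change lay between 0.38 and 0.55. Of the 3550 bases counted for Bid, 628 (17.7%) also belong to exons of Bcl2l13 on the other strand. The library kit did not mark strand. Bcl2l13, a mitochondrial relative of the family, had a log2 fold change of 0.0076 (limma, adjusted p = 0.98).

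Bad (chr19:6941861-6951899, plus strand), which occupies BCL2 and BCL-XL when it is not phosphorylated, was at 28.9, 38.3 and 28.5 FPKM in Znf143 f/f and at 41.3, 32.1 and 35.0 FPKM in Znf143 -/- libraries. WT2 lay above KO2 and KO3, so the groups overlapped. Bad had a log2 fold change of 0.18 (95% interval -0.18 to 0.54; limma, adjusted p = 0.51). This was 0.084 without KO1 (adjusted p = 0.74), 0.32 without WT2 (adjusted p = 0.14), 0.12 without WT1 and 0.11 without WT3. Between WT1 and WT3 and KO2 and KO3, which leaves out the highest library of each genotype, it was 0.22 (limma, adjusted p = 0.026). That split was chosen after seeing the data and called 42.6% of all genes, so it adds no support. With similar libraries averaged, the adjusted p of Bad was 0.87 (limma). Bad shares 524 exonic bases with Gpr137 on the other strand.

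Bcl2l11 (chr2:128126038-128162547, plus strand) encodes BIM, a BH3-only protein that binds every survival member and is known for removing blood cells deprived of cytokines. Its level was 0.785, 0.494 and 0.798 FPKM in Znf143 f/f and 0.759, 0.907 and 0.953 FPKM in Znf143 -/- libraries, from 203 to 464 fragments. WT2 was the lowest library, and KO1 lay under WT1 and WT3. Bcl2l11 had a log2 fold change of 0.32 (95% interval -0.22 to 0.86; limma, adjusted p = 0.44). Without WT2 it was 0.12, the lowest of its values with 1 library left out, without KO1 it was 0.40, and between WT1 and WT3 and KO2 and KO3 it was 0.21. Bmf (chr2:118528757-118549687, minus strand), which encodes a BH3-only protein tied to the cytoskeleton, was the lowest member and under the minimum for testing. It had 0, 47 and 1 fragments in WT1, WT2 and WT3 and 28, 27 and 21 in KO1, KO2 and KO3. WT1 and WT3 were at or under 3 fragments, which correspond to 0.00941 to 0.0143 FPKM, while WT2 had the highest count of all. The genotypes overlapped through WT2. Fitted without the minimum, Bmf had a log2 fold change of 0.44 (95% interval -0.55 to 1.43; limma, adjusted p = 0.57).

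Both effectors overlapped between the genotypes. Bax (chr7:45461697-45466898, minus strand) was at 66.0, 79.6 and 63.6 FPKM in Znf143 f/f and at 90.9, 66.1 and 70.3 FPKM in Znf143 -/- libraries, with KO1 and WT2 the high libraries of their genotypes. Its log2 fold change was 0.11 (95% interval -0.25 to 0.47; limma, adjusted p = 0.70), and without KO1 it was -0.026. Bak1 (chr17:27019810-27029009, minus strand), which encodes BAK, the effector kept in the outer membrane, was at 2.27, 2.41 and 2.44 FPKM and at 3.47, 2.17 and 2.25 FPKM. KO1 was above all Znf143 f/f libraries and KO2 and KO3 were below all of them. Its log2 fold change of 0.11 (95% interval -0.35 to 0.58; limma, adjusted p = 0.77) became -0.097 without KO1. Of the 2407 bases counted for Bak1, 614 are shared with exons of Ggnbp1 on the other strand. Bax shares 192 exonic bases with Gm45808 and Bcl2l2 594 with Gm20521, both on the same strand, and Bcl2 shares 558 with D630008O14Rik on the other, so reads over these stretches are uncertain in origin.

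**Figure D2:**
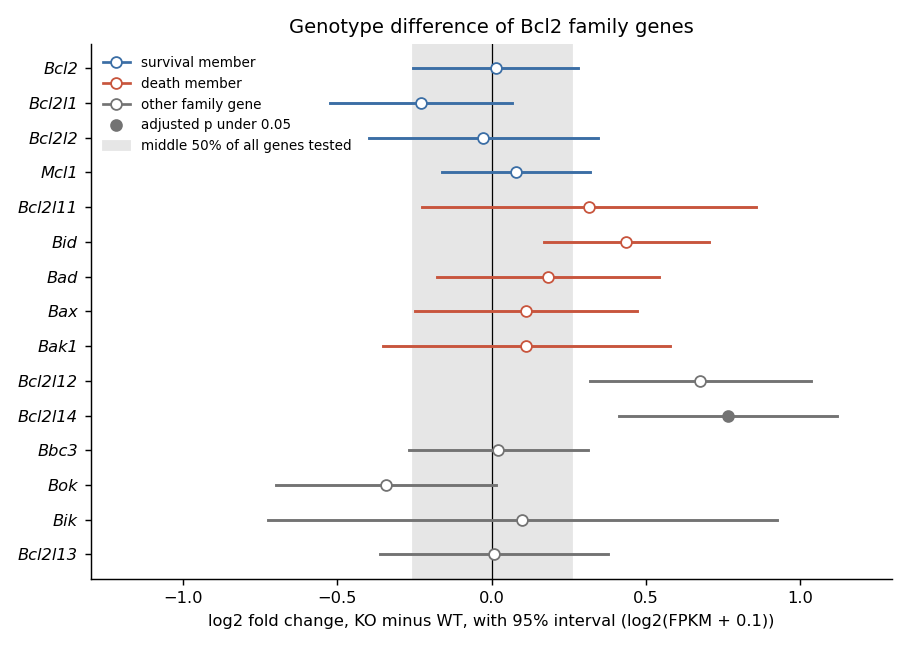
Log2 fold change (Znf143 -/- minus Znf143 f/f, on log2(FPKM + 0.1)) with its 95% limma interval for the 9 members tested and for 6 other family genes, with the middle 50% of all genes tested as a grey band and filled symbols for an adjusted p under 0.05. The intervals of the survival members include 0, that of Bid does not, and Bcl2l14 is the filled symbol.

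The spread within a genotype had a shape shared by several members. Compared with WT1 and WT3, WT2 had more Bad (38.3 FPKM against 28.5 and 28.9), more Bax (79.6 against 63.6 and 66.0) and less Mcl1, Bcl2 and Bcl2l11. KO1 had the highest Bad, Bax and Bak1 of the Znf143 -/- libraries and the lowest Bcl2l1, Bid, Mcl1 and Bcl2l11. For Bak1, Bax, Bad, Bcl2l1, Mcl1 and Bcl2l2, the gap between KO1 and the other Znf143 -/- libraries was wider than the gap between the genotype means. When KO2 and KO3 were set against WT1 and WT3, 4 of the 5 death members tested were higher. When KO1 was set against WT2, a single library each and the pair with the widest spread (11.2 times counting noise), 5 of 5 were higher. Of the 4 survival members, 2 were higher in each case, and Mcl1 was the 1 that was higher in both. These counts are descriptions, with no test, and the share of all genes higher in the same comparisons was not computed.

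**Figure D3:**
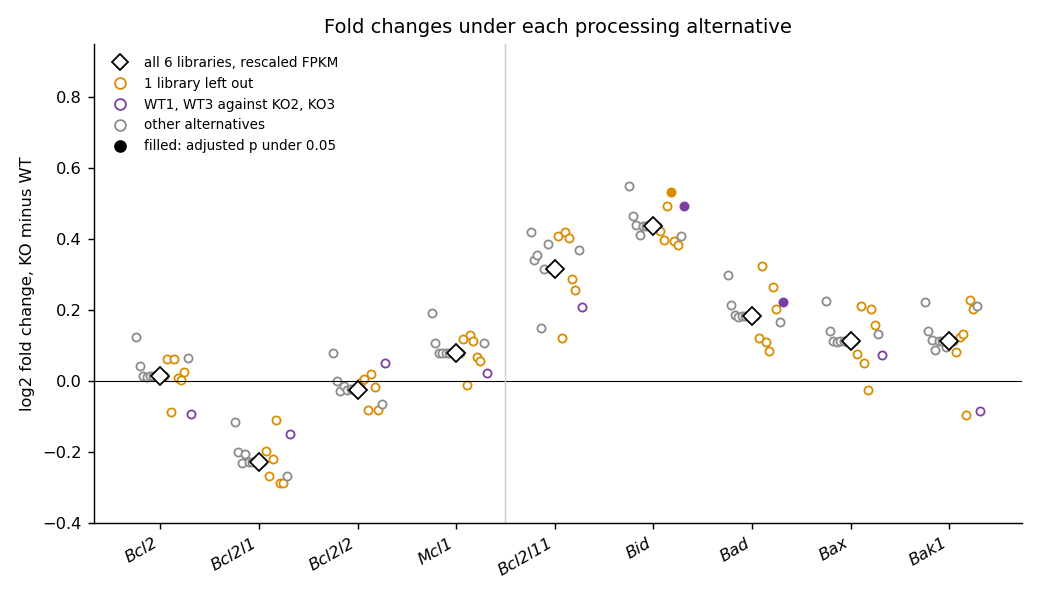
Log2 fold change of each tested member (Znf143 -/- minus Znf143 f/f) under the main processing (black diamonds) and under each alternative (circles), filled where the adjusted p was under 0.05. Bcl2, Bcl2l2, Mcl1, Bax and Bak1 have circles on both sides of 0, while Bcl2l1 stays below and Bcl2l11, Bid and Bad stay above.

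Summed over members, survival transcripts came to 76.2, 64.3 and 76.6 FPKM in WT1, WT2 and WT3 and to 69.9, 75.5 and 76.4 FPKM in KO1, KO2 and KO3. Death transcripts came to 110.4, 133.1 and 109.1 FPKM and to 151.6, 119.7 and 127.1 FPKM. The summed survival level was thus lower than the summed death level in every library, and the survival sums of the genotypes overlapped. The survival to death ratio was 0.691, 0.483 and 0.702 in Znf143 f/f and 0.461, 0.631 and 0.601 in Znf143 -/- libraries. WT2 and KO1 had the lowest ratios of their genotypes, and the groups overlapped through WT2. Mcl1 made up 75.6% to 77.1% of the survival sum in Znf143 f/f and 78.2% to 79.5% in Znf143 -/- libraries. Bax made up 96.3% to 97.1% and 96.3% to 96.9% of the effector sum. The BH3-only sum was 42.1, 51.0 and 43.0 FPKM in Znf143 f/f and 57.2, 51.4 and 54.6 FPKM in Znf143 -/- libraries, with WT2 just under KO2 and thus no overlap, and Bad was 62.5% to 75.1% of it. These sums weight each gene by its level and were not tested.

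The 4 ratios within a library, which do not depend on how that library is scaled, were compared by a two-sided exact permutation test over libraries, whose smallest p with 3 against 3 is 0.1. Mcl1 to Bcl2l11, the ratio of a survival gene to its BH3-only partner BIM, was 74.2, 98.4 and 74.0 in Znf143 f/f and 73.2, 65.1 and 63.1 in Znf143 -/- libraries. The groups did not overlap, but KO1 lay just under WT1 and WT3. The log2 difference was -0.28, with an exact p of 0.1 and an adjusted p of 0.4 over the 4 ratios, and it was -0.15 without WT2 and -0.35 without KO1. Bcl2l1 to Bad was 0.344, 0.234 and 0.337 in Znf143 f/f and 0.166, 0.274 and 0.252 in Znf143 -/- libraries. WT2 lay below KO2 and KO3, and the log2 difference of -0.42 had an exact p of 0.3 (adjusted p = 0.6). It was -0.20 without KO1 and -0.60 without WT2. Bcl2 to Bax was 0.106, 0.0709 and 0.110 in Znf143 f/f and 0.0726, 0.101 and 0.0916 in Znf143 -/- libraries, with an exact p of 0.6 (adjusted p = 0.8). Mcl1 to Bak1 was 25.7, 20.2 and 24.2 in Znf143 f/f and 16.0, 27.2 and 26.7 in Znf143 -/- libraries, with an exact p of 1. For Mcl1 to Bak1, KO1 was the lowest library and KO2 and KO3 the highest.

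**Figure D4:**
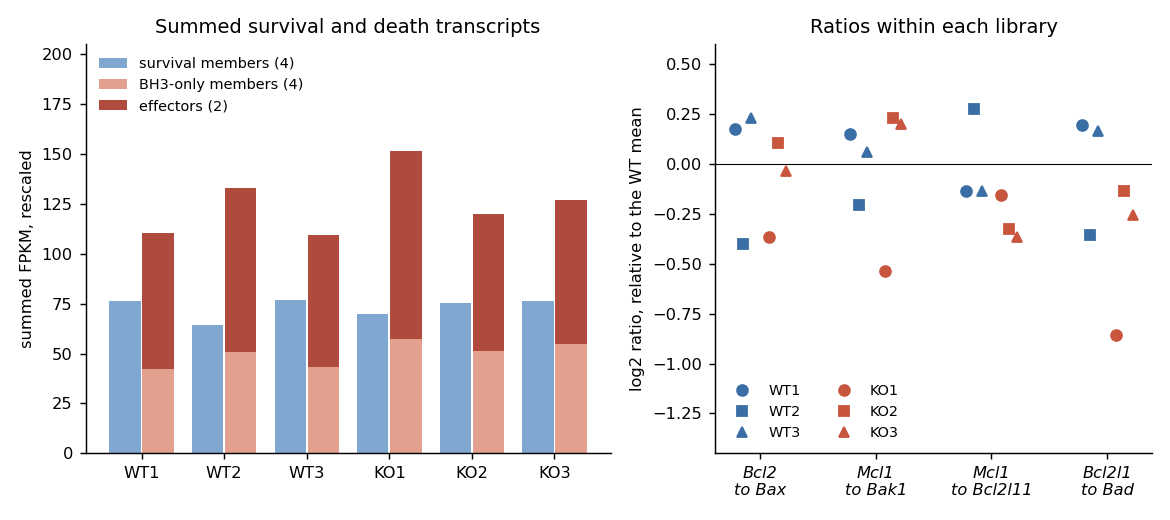
Left, summed FPKM of the survival members (blue) and of the BH3-only members and effectors (light and dark red, stacked) in each library, on an axis from 0. Right, the 4 within-library ratios as log2 differences from the mean of the Znf143 f/f libraries, 1 symbol a library; for 3 of the 4 ratios WT2 or KO1 lies far from the other libraries of its genotype and the groups overlap.

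Of 12 further Bcl2 family genes fixed as a list, 9 were in the table, 8 were tested and 1 passed the test. Bcl2l14, which encodes the relative BCL-G, rose from 0.892, 1.02 and 1.01 FPKM in Znf143 f/f to 1.80, 1.84 and 1.55 FPKM in Znf143 -/- libraries. All 3 Znf143 -/- values were above all Znf143 f/f values, with a log2 fold change of 0.77 (95% interval 0.41 to 1.12; limma, adjusted p = 0.035). Of the bases counted for Bcl2l14, 577 lie in exons of 4933406J09Rik on the other strand. The call was lost without WT1, WT3, KO2 or KO3, with an adjusted p of 0.13, 0.13, 0.15 and 0.13. Bcl2l12, a proline-rich relative, is named here after its values were seen. It was at 15.4, 19.4 and 16.1 FPKM in Znf143 f/f and at 32.6, 23.6 and 25.7 FPKM in Znf143 -/- libraries, again with no overlap, and KO1 was the highest. Its log2 fold change of 0.68 (95% interval 0.32 to 1.04) had an adjusted p of 0.0503 by limma, just above the threshold. It passed the test under 7 of 17 alternatives. These were without KO1 (0.54, adjusted p = 0.049, where 11.0% of all genes tested were called), without WT2 (0.78, adjusted p = 0.036, where 11.9% were called) and limma-voom (adjusted p = 0.039). By limma it also passed with FPKM as deposited (adjusted p = 0.029), each library's own total (0.024) and a minimum mean of 1 FPKM (0.047). The last was WT1 and WT3 against KO2 and KO3 (limma, adjusted p = 0.0025), a split chosen after seeing the data that called 42.6% of genes. It did not pass without WT1, WT3, KO2 or KO3 (limma, adjusted p = 0.16, 0.18, 0.083 and 0.16) or with similar libraries averaged (adjusted p = 0.34). Bcl2l12 shares 572 exonic bases with Gm15545 and 88 with Irf3, both on the other strand. The list as a whole had a median log2 fold change of 0.061, against 0.0064 for all genes tested. Of its other genes, Bbc3 was at 0.022, Bik at 0.10, Bok at -0.34, Bcl2a1b at 0.84 and Bcl2a1d at -0.25. None of these passed the test (limma, adjusted p of 0.17 to 0.94). Bcl2a1b and Bcl2a1d are near-identical copies between which reads can be split, and their values are uncertain.

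Promoters from RefSeq (GRCm38.p6; 250 bases before to 50 after the start) were searched on both strands for letters of the ZNF143 motif. The 10 members matched 16 promoters. CCCAGCA, from the core of the motif, was in 1 of the 16, that of Bax, and in 10.2% of all 32851 promoters. ACTACA, from its upstream part, was in 1 of the 16, that of Bcl2l1, and in 10.3% of all promoters; the motifs do not overlap each other. Among the other family genes, CCCAGCA was found in the promoters of Bbc3 and Bcl2l12. Those of Bid, the member nearest the threshold, of Bax, the highest member, and of Bcl2l12 are given to show where these letters lie. They are on the minus strand, at chr6:120916775-120917074 (Bid), chr7:45466849-45467148 (Bax) and chr7:44997530-44997829 (Bcl2l12), written 5′ to 3′, and capitals mark the match to CCCAGCA, which lies on the other strand (there is none in Bid).
Bid: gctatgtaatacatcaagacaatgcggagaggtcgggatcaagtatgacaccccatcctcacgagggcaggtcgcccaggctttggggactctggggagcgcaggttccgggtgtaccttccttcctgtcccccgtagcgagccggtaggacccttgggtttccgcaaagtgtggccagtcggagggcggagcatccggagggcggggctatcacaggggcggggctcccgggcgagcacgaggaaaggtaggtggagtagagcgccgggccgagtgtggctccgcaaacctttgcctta
Bax: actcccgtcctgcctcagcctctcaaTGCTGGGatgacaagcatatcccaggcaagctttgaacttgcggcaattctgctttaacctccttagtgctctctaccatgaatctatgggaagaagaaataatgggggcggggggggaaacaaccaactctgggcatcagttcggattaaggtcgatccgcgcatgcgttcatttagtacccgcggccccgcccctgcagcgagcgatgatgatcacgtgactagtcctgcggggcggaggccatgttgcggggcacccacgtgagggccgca
Bcl2l12: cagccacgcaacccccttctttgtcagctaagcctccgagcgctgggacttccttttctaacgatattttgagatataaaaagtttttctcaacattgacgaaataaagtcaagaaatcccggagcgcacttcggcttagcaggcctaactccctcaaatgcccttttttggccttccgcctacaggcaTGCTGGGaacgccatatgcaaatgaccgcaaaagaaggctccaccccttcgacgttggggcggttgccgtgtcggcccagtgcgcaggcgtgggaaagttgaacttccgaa
The match in Bcl2l12 begins 61 bases before the start, and that in Bax 224 bases before it. A match is a description of letters, and the binding of ZNF143 was not analysed here.

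In the rest of the pathway, 6 lists with 59 genes were examined, of which 56 were tested and 0 passed the test by limma. At an unadjusted p under 0.05 there were 11 (19.6%), 5 higher and 6 lower in Znf143 -/- cells, against 24.2% of all genes tested. Their median log2 fold change was 0.023. Casp8, the caspase that cuts BID, came nearest. Its level was 39.9, 38.5 and 40.3 FPKM in Znf143 f/f and 45.7, 52.2 and 54.5 FPKM in Znf143 -/- libraries, with KO1 the lowest of the latter and no overlap. Casp8 had a log2 fold change of 0.36 (limma, adjusted p = 0.071), and without KO1 it was 0.43 with an adjusted p of 0.019, where 11.0% of all genes tested were called. Leaving out WT1, WT3, KO2 or KO3 gave adjusted p of 0.20 to 0.29, leaving out WT2 0.086, and averaging similar libraries 0.62 (limma). Casp9, the caspase of the apoptosome, had a log2 fold change of -0.34 (adjusted p = 0.25), and the list of 8 apoptosome and caspase genes a median of 0.067.

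Among 9 tested inhibitor of apoptosis genes and their antagonists, 7 had a log2 fold change below 0 and the median was -0.18. Birc3, a ubiquitin ligase of death receptor complexes, was at 0.42 (limma, adjusted p = 0.11) and Xiap, which blocks caspases directly, at -0.26 (adjusted p = 0.16). The 10 outer membrane partners had a median of 0.047, with Vdac3 at 0.18 (adjusted p = 0.21) and Mtch2, a receptor of truncated BID, at 0.12 (adjusted p = 0.41). Of 10 tested genes for MCL1 and BIM turnover, Huwe1, a ubiquitin ligase of MCL1, was at -0.37 (adjusted p = 0.12) and Ywhaz, a 14-3-3 protein that holds phosphorylated BAD, at 0.28 (adjusted p = 0.13). Of 12 tested transcription factors, Stat5b, activated by cytokine receptors, was at 0.32 (adjusted p = 0.074) and Foxo4, a forkhead factor held back by growth factor signals, at -0.92 (adjusted p = 0.077). Of 7 death receptor genes, Fadd, the adaptor that recruits caspase 8, was at 0.29 (adjusted p = 0.13) and Cflar, which blocks caspase 8 there, at -0.23 (adjusted p = 0.28). The 2 genes of each list with the lowest p are named.

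**Figure D5:**
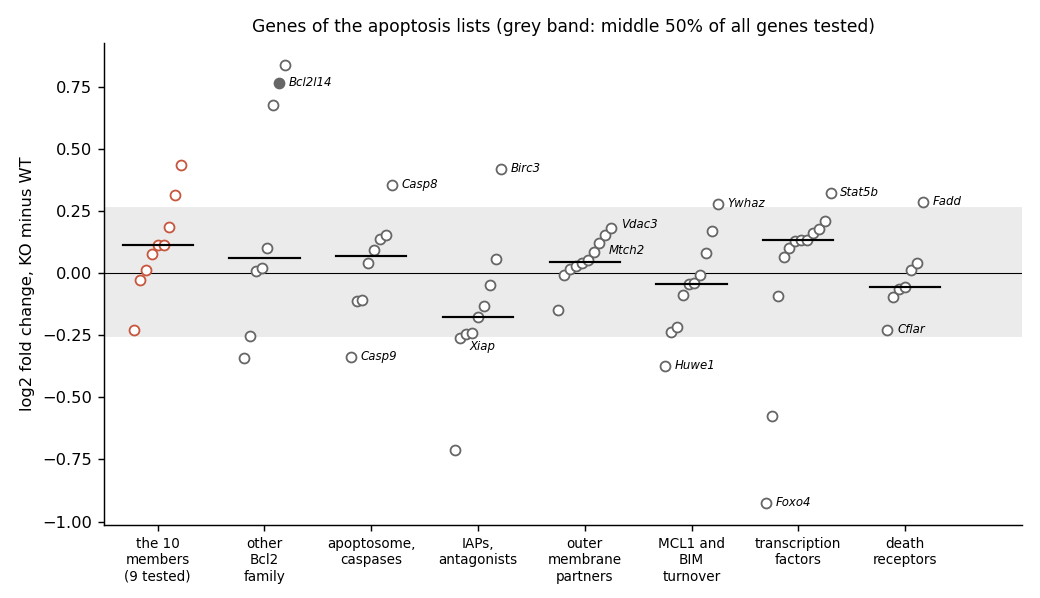
Log2 fold change (Znf143 -/- minus Znf143 f/f) of the 9 members tested (red) and of the genes of 7 further lists (grey), with the median of each list as a bar and filled symbols for an adjusted p under 0.05. Bcl2l14 is the only filled symbol, and the medians lie between -0.18 and 0.13, inside the grey band that holds the middle 50% of all genes tested.

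Markers of the sorted cell and of others moved with the genotype. Beside the counts below, 6.05% of all genes tested passed the test and 24.2% had an unadjusted p under 0.05 (limma). Defining stem cell markers were present in every library, but not all at a steady level. The sort selects for Kit, Slamf1 (CD150) and Ly6a (Sca-1). Kit was at 18.6 to 21.2 FPKM in Znf143 f/f and 13.0 to 16.2 FPKM in Znf143 -/- libraries (log2 fold change -0.45, limma adjusted p = 0.066). Slamf1 was at 4.95 to 7.30 and 7.57 to 8.69 FPKM (0.36, limma adjusted p = 0.24). Procr was at 41.3 to 47.5 FPKM, with the genotypes overlapping. Hlf was at 21.0 to 26.2 FPKM in Znf143 f/f and 17.4 to 18.0 FPKM in Znf143 -/- libraries (log2 fold change -0.45, limma adjusted p = 0.056). Of 9 stem cell markers, Mecom was lower (log2 fold change -0.55, limma adjusted p = 0.021) and Ly6a higher (1.13, adjusted p = 0.0045). The Mecom call was lost without WT1, WT3, KO2 or KO3 (adjusted p = 0.091, 0.11, 0.096 and 0.13). The log2 fold changes of 7 of the 9 were below 0, and the median of the 9 was -0.40. At an unadjusted p under 0.05 (limma) there were 5, of which 4 were lower and 1, Ly6a, was higher. The sum of all 9 was 461 to 514 FPKM in Znf143 f/f and 727 to 772 FPKM in Znf143 -/- libraries and went the other way with Ly6a, whose mean was 256 and 558 FPKM. Cd48, which the sort excludes, was at 9.20 to 10.7 FPKM and at 18.8 to 19.7 FPKM (0.97, adjusted p = 0.0031). Of 7 tested myeloid markers 3 passed the test, all higher (Elane, Ctsg and Csf1r, the last passing the minimum only through Znf143 -/- cells). All 7 had a log2 fold change above 0, with a median of 1.46. The myeloid sums were 119 to 219 and 155 to 275 FPKM, mostly from Prtn3 (116 to 217 and 135 to 267 FPKM, log2 fold change 0.029). Both tested lymphoid markers, Flt3 and Dntt, were higher (Flt3 4.78 to 5.19 and 15.0 to 15.4 FPKM, Dntt 0 to 0.317 and 6.72 to 7.53 FPKM), while Cd3e, Cd79a, Il7r and Ebf1 stayed under 0.1 FPKM in every library. Of 7 erythroid markers 1 was higher (Gata1, with list sums of 86.9 to 246 and 97.4 to 98.5 FPKM). Of 7 megakaryocyte markers 1 was higher (Itgb3, with list sums of 525 to 605 and 655 to 980 FPKM). Most of the megakaryocyte sum came from Pf4, at 375 to 458 and 480 to 789 FPKM. The erythroid marker Car1 was at 136 FPKM in WT2, 14.5 and 21.0 FPKM in WT1 and WT3, and 6.62 to 9.05 FPKM in Znf143 -/- libraries, and WT2 was also the library with low Mcl1, Bcl2 and Bcl2l11 and high Bad and Bax. The part of other cells in the levels of Bid, Bcl2l1 and the other members was not tested.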

How the data were processed

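RNA-seq of poly(A) RNA from sorted HSLAM cells was amplified with a kit that does not mark strand. Reads were trimmed (TrimGalore), aligned to GRCm38, also called mm10, by STAR and counted per gene by FeatureCounts, and the authors deposited FPKM for each library. The deposited mean counts, fold changes and p-values of the authors' own DESeq2 comparison were not used. Fragments were recovered from FPKM times gene length (138677 of 138696 values within 0.05 of a whole number), and FPKM were recomputed with median-of-ratios size factors, since KO3 carries the divisor of KO2. A gene was tested if its FPKM averaged 0.1 or more. limma 3.58.1 in R 4.3.3 (lmFit, eBayes, variance trend) was run on log2(FPKM + 0.1), with Benjamini-Hochberg adjustment. On simulated fragments with 200 changed genes, it recovered 40% of 2-fold and 100% of 4-fold changes. Of its calls there, 8.5% were on unchanged genes. The spread of the simulated fragments was set in advance, not estimated from these libraries. Fold changes on this scale understate those of low genes. Likeness of libraries was measured over genes with 20 to 200 fragments in a pair. Coordinates and exons are from GENCODE on GRCm38; the members' lengths equal the deposited ones except for Bad. The floor of 3 fragments covers counting error only.

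Members and lists were chosen with earlier results of these data known. Named were all 10 members, Zfp143, and of each other list the genes past the threshold or, failing those, the 2 with the lowest p; genes named for other reasons were chosen after their values were seen. The 4 ratios used exact permutation tests. The alternatives were other scalings, pseudocounts of 0.01 and 1, other filters, limma-voom, no variance trend, a replicate block, and leaving out each library. Those with similar libraries averaged or with WT2 and KO1 left out were chosen after seeing the data. One lymphoid marker is not reported here.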

Additional observations from a re-analysis of the deposited data

How the results depend on the processing

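Members called stayed at 0 except without KO1 (range 0 to 1 with 1 library left out) and between WT1 and WT3 and KO2 and KO3 (2, Bid and Bad). Over all genes, the 1161 calls became 226 (without KO3) to 2268 (without WT2) with 1 library left out, 2106 without KO1, 373 without WT1, 260 without WT3, 351 without KO2, 47 with similar libraries averaged and 8094 between WT1 and WT3 and KO2 and KO3; the cause was not tested, but the 4 close libraries have the smaller spread. FPKM as deposited shifted the median log2 fold change of all genes from 0.0064 to 0.11, and 529 of 833 calls were then higher, against 581 of 1161.

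The sign changed for Bcl2l2 with FPKM as deposited (0.079), with each library's own total (0.00096) and between WT1 and WT3 and KO2 and KO3 (0.051), and in the last also for Bcl2 (-0.092) and Bak1 (-0.085). With 1 library left out, log2 fold changes ran from -0.088 to 0.063 (Bcl2), -0.082 to 0.019 (Bcl2l2), -0.011 to 0.13 (Mcl1), -0.026 to 0.21 (Bax) and -0.097 to 0.23 (Bak1), and the log2 differences from -0.30 to 0.036 (Bcl2 to Bax), -0.17 to 0.21 (Mcl1 to Bak1), -0.35 to -0.15 (Mcl1 to Bcl2l11) and -0.60 to -0.20 (Bcl2l1 to Bad). The Zfp143 fall kept its call under all 17 alternatives. By limma, Bcl2l14 lost its call under 6 of 17 alternatives and Mecom under 7, with adjusted p of 0.42 and 0.41 with similar libraries averaged and 0.14 and 0.12 with the replicate block; Mecom also lost it with FPKM as deposited (0.18).

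Same-numbered libraries did not deviate together (correlations of -0.096, -0.089 and 0.036 for numbers 1, 2 and 3), and only WT3 was closest to its own number. The replicate block, which therefore pairs by number alone, gave 186 calls and 0 members. The study describes 3 pairs of littermates of the 2 genotypes, but the labels do not say which libraries form a pair. The main fit was unpaired. Members under 1 FPKM rest on few fragments (Bcl2l11 203 to 464, Bmf 0 to 47).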

Other observations

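Pmaip1, which encodes the BH3-only protein NOXA, a partner of MCL1, was in none of the lists and was looked at after its values were seen. It was at 0.0945, 0.133 and 0.0412 FPKM in WT1, WT2 and WT3 and at 0.476, 0.348 and 0.399 FPKM in KO1, KO2 and KO3. All Znf143 -/- libraries were above all Znf143 f/f libraries, with a log2 fold change of 1.44 (95% interval 0.75 to 2.13; limma, adjusted p = 0.038). The gene passed the minimum of 0.1 FPKM only through the Znf143 -/- libraries. Of all genes tested, 6.05% passed the test and 30.8% did not overlap between the genotypes. Under 8 of 16 alternatives the call was lost, with adjusted p up to 0.39.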
